A study of Mus musculus with 11 samples.

Results

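The 10 genes described here carry, store and export iron in the liver or set the level of hepcidin, the hormone that governs iron export: Hamp, Hamp2, Bmp6, Tfr2, Tfrc, Trf, Fth1, Slc40a1, Heph and Cp. They were taken as the array probes, controls left out, whose accession belongs to one of these RefSeq mouse symbols. All 10 symbols had a probe, 15 probes in all, out of 20145 symbols and 55681 probes on the array. Total RNA from the livers of 11 male mice was hybridised to 11 one-colour Agilent arrays. The β-catΔEx3:Myc group (4 arrays) expressed mutant β-catenin, named for the loss of exon 3, together with c-Myc, the β-catΔEx3 group (3 arrays) expressed the mutant β-catenin without c-Myc, and the WT group (4 arrays) carried neither. The mice of all groups were of a hybrid background, mostly B6SJL with some 129S6, had received no treatment, and were 22 to 40 days old. The ages given singly are 29 days for β-catΔEx3:Myc replicate 4, 30 days for β-catΔEx3 replicate 3 and 31 days for WT replicate 4. By the series text all samples, those of WT mice too, came from livers with tumours, and whether tumour or nearby tissue was hybridised is not stated. The promoter or Cre behind each allele is not given in the sources used here, nor is pooling of animals. No label says how the animals of a group are related, so p-values measure the spread between these arrays.

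Hepatocytes release hepcidin into the blood, where it binds ferroportin, the product of Slc40a1, and has it degraded, so that less iron leaves macrophages, hepatocytes and the gut. Hepcidin transcription responds to body iron through BMP6 and BMP2, ligands made by liver endothelial cells that signal through SMAD proteins in the hepatocyte, and to inflammation through interleukin signalling to STAT3. Inside cells, iron regulatory proteins bind ferritin and transferrin receptor mRNAs and so match storage and uptake to the iron at hand.

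The mouse has a pair of hepcidin genes lying close together, Hamp and Hamp2, of which Hamp encodes the iron hormone. Their promoters are shown because the hepcidin genes gave the largest array to array differences of the set and because they share most of their sequence. The lines give the 250 bases before each RefSeq start on GRCm38.p6, both on the minus strand, Hamp at chr7:30944030-30944279 and Hamp2 at chr7:30924182-30924431. Capitals mark the letters GGCGCC, the core of the BMP response element, and the STAT site TTCNNNGAA.
Hamp: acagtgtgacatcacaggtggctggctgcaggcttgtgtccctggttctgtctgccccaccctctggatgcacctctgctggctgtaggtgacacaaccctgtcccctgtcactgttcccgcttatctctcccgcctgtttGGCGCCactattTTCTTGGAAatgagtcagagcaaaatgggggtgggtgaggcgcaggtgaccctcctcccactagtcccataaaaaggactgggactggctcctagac
Hamp2: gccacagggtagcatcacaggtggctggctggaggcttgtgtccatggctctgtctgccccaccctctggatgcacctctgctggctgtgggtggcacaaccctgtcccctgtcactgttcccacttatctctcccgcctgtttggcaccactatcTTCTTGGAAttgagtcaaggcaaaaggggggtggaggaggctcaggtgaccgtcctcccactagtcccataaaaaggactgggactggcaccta
The windows aligned over 247 bases with 227 identical (91.9%). Hamp held GGCGCC starting at -109 from its start and the STAT letters at -97. Hamp2 held the STAT letters at -94 and, in place of GGCGCC, the sequence GGCACC, a change written G4A with positions counted from 1 at the 5′ end of the motif in Hamp. Both strands were searched in the 12 windows found for 7 of the 10 genes. GGCGCC lay in 9.59% of all 32851 RefSeq promoter windows of this length and TTCNNNGAA in 7.02%. Among the other windows, Tfrc held GGCGCC at -89, and Bmp6 held the E-box CACGTG (6.02% of windows) at -127 and TGACNNNGC, the core of the antioxidant response element (10.2%), at -108. The Tcf core CTTTGA, present in 13.8% of windows and overlapping none of the other motifs, was in none of the 12.

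Values below are log2 signal relative to the upper quartile of the same array, so 0 is that array's 75th percentile and 1 unit is a doubling. They compare arrays for a given probe, not levels between genes. A gene was called where its limma adjusted p, corrected over 22282 genes and unnamed transcripts, was under 0.05. The upper quartile itself lay between 227 and 354 signal units, 49.0% to 53.4% of spots were well above background on each array, and no spot was saturated. The probe used for each of the 10 genes was well above background on all 11 arrays, and the number of arrays limits the precision. Myc, the gene of the added allele, was higher in β-catΔEx3:Myc livers than in WT livers (log2 fold change 3.37 ± 0.68 SE, adjusted p = 0.00277), with levels of 2.31 to 4.74 in β-catΔEx3:Myc livers, 1.14 to 2.21 in β-catΔEx3 livers and -0.76 to 2.05 in WT livers. Without WT replicate 1 the Myc value against WT was 3.97. Between the models Myc was not called by limma (1.87 ± 0.73 SE, adjusted p = 0.395), though the groups did not overlap. WT replicates 1 to 3 were on slide 1, β-catΔEx3:Myc replicates 1 and 2 with β-catΔEx3 replicates 1 and 2 on slide 2, β-catΔEx3:Myc replicate 3 on slide 3, and replicate 4 of β-catΔEx3:Myc and of WT with β-catΔEx3 replicate 3 on slide 4. A fit with slide as a block (the slide-blocked fit) therefore rests each comparison with WT on WT replicate 4. WT replicate 4 correlated with the other WT arrays at r = 0.975 to 0.978 across all features, against 0.986 to 0.990 among those 3, which share a slide. Arrays within the β-catΔEx3:Myc group correlated at 0.967 to 0.982 and within the β-catΔEx3 group at 0.971 to 0.979.

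In both models the transferrin receptor Tfrc and the ferritin heavy chain Fth1 rose and ceruloplasmin (Cp) and the iron sensor Tfr2 fell, relative to WT. In β-catΔEx3:Myc livers 2 of the 10 genes were called higher, against a background of 25.3% of everything tested, and 6 lower, against 17.1%. In β-catΔEx3 livers 3 were called higher, against 21.6%, and 2 lower, against 15.5%. The median log2 fold change of the 10 genes was -0.79 in β-catΔEx3:Myc livers and 0.27 in β-catΔEx3 livers, beside 0.14 (β-catΔEx3:Myc) and 0.10 (β-catΔEx3) over all features tested. The groups did not overlap for 7 genes in β-catΔEx3:Myc against WT, where 42.4% of all features had groups apart, and for 5 genes in β-catΔEx3 against WT, where the background was 43.7%. Both comparisons use the same WT arrays. Between the models, Heph alone among the 10 was called, lower in β-catΔEx3:Myc livers, with backgrounds of 0.144% lower and 0.108% higher. Once slide entered the fit as a block, 1 of the 10 genes was called in β-catΔEx3:Myc livers and 4 in β-catΔEx3 livers, both against WT, and 1 between the models. The 4 in β-catΔEx3 livers were Tfrc, Fth1 and Cp, which kept their calls, and Hamp, which was not called without the block. Tfr2 and Bmp6 lost their calls in that comparison. Of all 22282 features, that fit called 956 higher and 991 lower in β-catΔEx3:Myc livers, in place of 5637 and 3814. In β-catΔEx3 livers it called 926 higher and 886 lower, in place of 4803 and 3463. Between the models it called 115 higher and 63 lower, in place of 24 and 32.

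**Figure D1:**
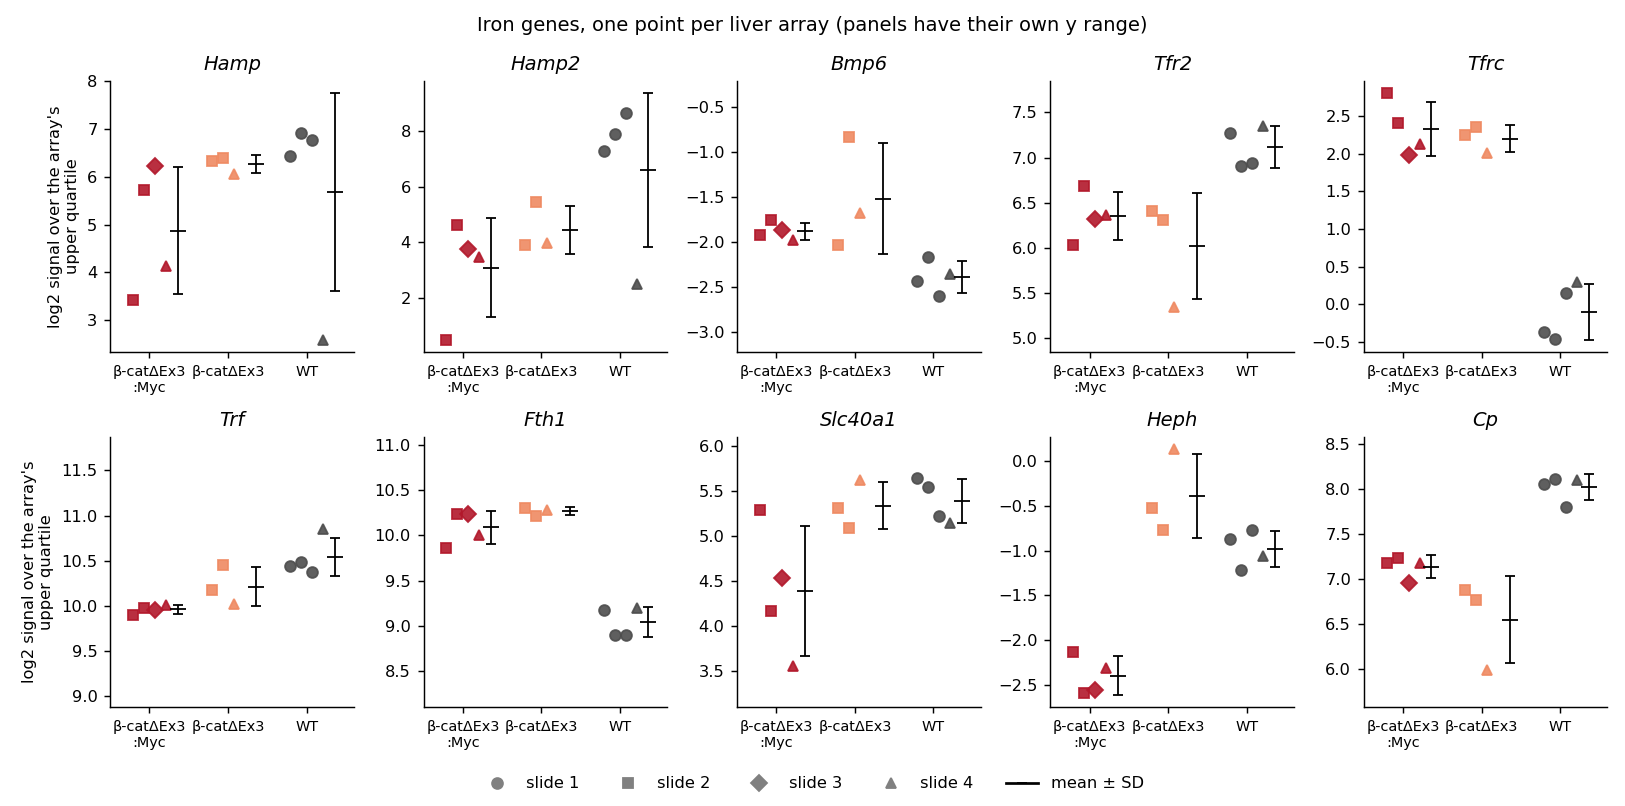
Log2 signal over the array's upper quartile (y axis, a range of its own in each panel) of the 10 iron genes in 4 β-catΔEx3:Myc, 3 β-catΔEx3 and 4 WT livers. Each point is an array, its shape gives the slide and black marks give mean ± SD. Tfrc and Fth1 lie higher and Cp lower in every array of both models than in every WT array, Heph is lowest in β-catΔEx3:Myc livers, and WT replicate 4 has Hamp at 2.59 where the other WT livers have 6.44 to 6.92.

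Hepcidin was uneven among the β-catΔEx3:Myc and WT livers. Hamp read 3.42, 5.73, 6.23 and 4.13 in β-catΔEx3:Myc livers, 6.34, 6.40 and 6.07 in β-catΔEx3 livers, and 6.44, 6.92, 6.77 and 2.59 in WT livers. The β-catΔEx3 livers were close together, and a single WT liver, replicate 4, was the lowest array of the study. Hamp was not called in β-catΔEx3:Myc against WT (-0.81 ± 0.94 SE, adjusted p = 0.52), in β-catΔEx3 against WT (0.59 ± 1.01, adjusted p = 0.682) or between the models (-1.40, adjusted p = 0.718). Without WT replicate 4, Hamp was called lower in β-catΔEx3:Myc livers than in WT livers (log2 fold change -1.84, adjusted p = 0.0328). In β-catΔEx3 livers the value without that liver changed sign, to -0.44, and was again not called (adjusted p = 0.619). The slide-blocked fit, which compares with that liver, gave 1.58 (adjusted p = 0.255) for β-catΔEx3:Myc livers and 3.43 (adjusted p = 0.0486) for β-catΔEx3 livers. The difference of β-catΔEx3:Myc minus β-catΔEx3 livers within a slide was -1.80 on slide 2 and -1.94 on slide 4.

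Hamp2 was lower in β-catΔEx3:Myc than in WT livers by the test, with overlapping groups. It read 0.50, 4.63, 3.76 and 3.48 in β-catΔEx3:Myc livers, 3.91, 5.45 and 3.99 in β-catΔEx3 livers, and 7.29, 7.89, 8.65 and 2.51 in WT livers. WT replicate 4 was again far below the other WT livers, and β-catΔEx3:Myc replicate 1, the lowest of its group for Hamp, was the lowest array. The log2 fold change was -3.49 ± 1.28 SE (11.3-fold, adjusted p = 0.0483) in β-catΔEx3:Myc livers and -2.14 ± 1.38 (adjusted p = 0.252) in β-catΔEx3 livers, both against WT, and -1.36 (adjusted p = 0.823) between the models. The β-catΔEx3:Myc call was lost without WT replicate 1, 2 or 3 or β-catΔEx3:Myc replicate 1, 3 or 4 (adjusted p = 0.0693 to 0.127), with no filter (0.0779) and with slide as a random block (0.0782), and its value moved to -4.85 without WT replicate 4, -2.81 without WT replicate 3 and -2.63 without β-catΔEx3:Myc replicate 1. In the slide-blocked fit it was 0.43 (adjusted p = 0.89), and the β-catΔEx3 value was 2.01 (adjusted p = 0.466), while without WT replicate 4 the β-catΔEx3 value was -3.49 (adjusted p = 0.0176). Probe sequences were not used here, so how far each probe also reads the transcript of the other gene is uncertain.

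The BMP target genes are transcripts that respond to the same SMAD signal as Hamp. In WT replicate 4, Id1 was at 0.35 where the other WT livers read -1.64 to -1.44, and Smad6 at 0.20 where they read -0.87 to -0.49. Id3 was at 2.41 where the others read 2.90 to 3.17. Id2 at 4.07 (the others 3.62 to 5.42), Smad7 at -1.66 (-1.75 to 0.04) and Atoh8 at -1.0 (-1.47 to -0.87) lay within their range. Id1 and Smad6 were thus above, and Id3 below, the other WT livers. Of the 6 measured (Id1, Id2, Id3, Smad6, Smad7, Atoh8), Id1 was called higher in β-catΔEx3 against WT (2.13 ± 0.71 SE, adjusted p = 0.0376) with overlapping groups, and none was called in β-catΔEx3:Myc livers, where 3 were lower at an unadjusted p under 0.05. The backgrounds were 21.6% higher and 15.5% lower in β-catΔEx3 livers and 25.3% and 17.1% in β-catΔEx3:Myc livers. The Id1 call was lost in the slide-blocked fit (adjusted p = 0.302) and without WT replicate 1, 2 or 3 or β-catΔEx3 replicate 2 or 3 (adjusted p = 0.0803 to 0.117), and with the percentile over probes detected on all arrays (0.0581) or no filter (0.063). Id2, the one of highest signal, differed by -0.03 (adjusted p = 0.953) in β-catΔEx3:Myc against WT and by -0.52 (adjusted p = 0.759) in β-catΔEx3:Myc against β-catΔEx3. Erythroid cells make erythroferrone, a hormone that lowers hepcidin, and its gene Erfe had 2 probes and did not pass the filter on dim probes. The 7 measured erythroid markers, none at background on every array, summed to 565, 259.7, 30.0 and 58.8 in β-catΔEx3:Myc livers, 35.4, 128 and 88.5 in β-catΔEx3 livers, and 532, 352, 427 and 645 in WT livers, in replicate order. Most of each sum came from a single globin gene, Hba-a1. The sum was the highest of its group in the liver with the lowest Hamp of both the β-catΔEx3:Myc and the WT group, but β-catΔEx3:Myc replicate 4, with Hamp at 4.13, had 58.8, and WT replicate 1, with Hamp at 6.44, had 532. Klf1, an erythroid transcription factor, was at 0.13 in WT replicate 4 and -2.44 to -2.03 in the other WT livers, and Slc4a1, the red cell anion exchanger, at 2.59 and 0.25 to 0.33. In β-catΔEx3:Myc livers, in replicate order, Klf1 read 1.12, 0.09, 0.26 and 0.04 and Slc4a1 read 4.64, 1.06, -2.85 and -0.38. In β-catΔEx3 livers Klf1 read -0.49, -2.02 and -1.31 and Slc4a1 read -3.53, -3.07 and -0.58. Their part in the hepcidin values was not tested.

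**Figure D2:**
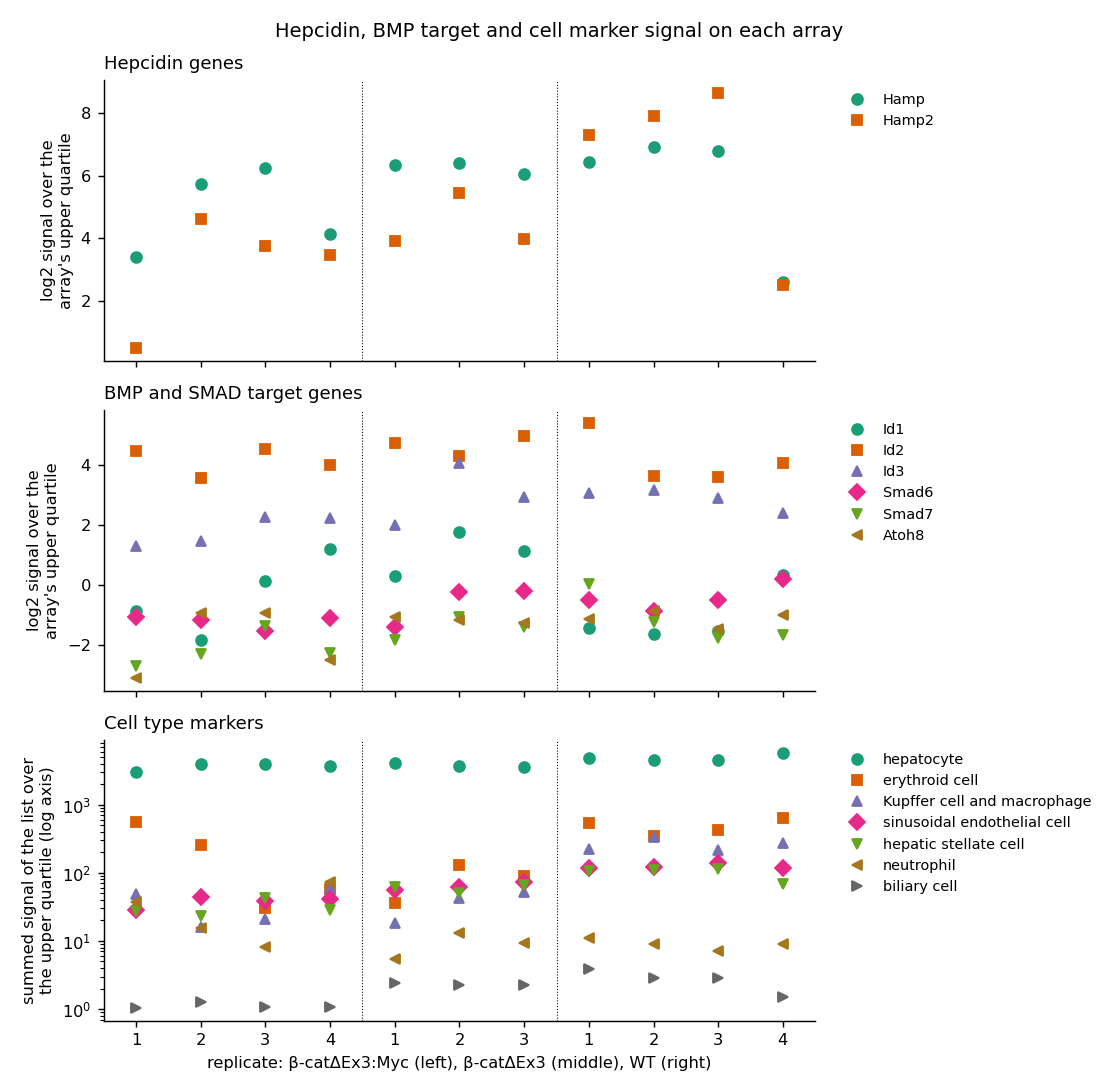
Signal on each of the 11 arrays, β-catΔEx3:Myc left, β-catΔEx3 in the middle and WT right. The upper panel gives Hamp and Hamp2 and the middle panel 6 BMP and SMAD target genes (log2 signal over the upper quartile), and the lower panel the summed signal of 7 marker lists over the upper quartile, on a log axis. Both hepcidin genes are low in WT replicate 4, at 2.59 and 2.51, and Kupffer cell markers are lower in every array of both models than in any WT liver.

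Bmp6 encodes the BMP ligand that rises with liver iron. It read -1.92, -1.76, -1.87 and -1.97 in β-catΔEx3:Myc livers, -2.04, -0.84 and -1.68 in β-catΔEx3 livers, and -2.43, -2.17, -2.59 and -2.35 in WT livers. Every array of both models lay above every WT array. The difference passed the test in β-catΔEx3 livers (0.87 ± 0.25 SE, 1.83-fold, adjusted p = 0.0191) and did not in β-catΔEx3:Myc livers (0.51 ± 0.23, adjusted p = 0.0982). The β-catΔEx3 call was lost without WT replicate 3 (adjusted p = 0.0506), with the percentile taken over probes detected on all arrays (adjusted p = 0.0601) and in the slide-blocked fit (0.71, adjusted p = 0.374). The sum of 8 sinusoidal endothelial markers, all detected, was 28.6 to 44.8 in β-catΔEx3:Myc livers, 55.4 to 72.0 in β-catΔEx3 livers and 116 to 137 in WT livers. Of the 8, 6 were called lower in β-catΔEx3:Myc livers (background 17.1%) and 4 in β-catΔEx3 livers (15.5%). The part of these markers in the Bmp6 difference was not tested. In bulk liver, fewer cells of a type and less RNA per cell cannot be told apart.

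Tfr2, the hepatocyte transferrin receptor that acts as an iron sensor upstream of hepcidin, was lower in both models. It read 6.03, 6.69, 6.32 and 6.36 in β-catΔEx3:Myc livers, 6.40, 6.31 and 5.34 in β-catΔEx3 livers, and 7.27, 6.90, 6.94 and 7.35 in WT livers. No array of either model reached the lowest WT array. The fall was -0.76 ± 0.25 SE (1.70-fold, adjusted p = 0.029) in β-catΔEx3:Myc livers and -1.10 ± 0.27 (2.14-fold, adjusted p = 0.00918) in β-catΔEx3 livers. It was larger but not called in the slide-blocked fit, at -1.33 (adjusted p = 0.0973) in β-catΔEx3:Myc livers and -1.67 (adjusted p = 0.058) in β-catΔEx3 livers. Leaving out any of 5 single arrays ended the β-catΔEx3:Myc call, with adjusted p of 0.071 without WT replicate 1, 0.0716 without WT replicate 4, 0.078 without β-catΔEx3:Myc replicate 1, 0.0593 without replicate 3 and 0.0502 without replicate 4 of that model.

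Among the other genes of the BMP arm of hepcidin control, Hjv, the BMP co-receptor hemojuvelin, and Hfe, a partner of transferrin receptors, rose in both models, and Bmp4 and Tmprss6, the protease that cleaves hemojuvelin, fell. Of the 15 measured genes, 2 were called higher and 5 lower in each model against WT, beside backgrounds of 25.3% higher and 17.1% lower for β-catΔEx3:Myc livers and 21.6% and 15.5% for β-catΔEx3 livers, with median log2 fold changes of -0.16 in β-catΔEx3:Myc livers and -0.11 in β-catΔEx3 livers. Hfe was 1.07 ± 0.23 SE higher in β-catΔEx3:Myc livers (adjusted p = 0.00403) and 1.12 ± 0.25 higher in β-catΔEx3 livers (adjusted p = 0.00595), and the slide block ended both calls (adjusted p = 0.272 for β-catΔEx3:Myc livers and 0.0925 for β-catΔEx3 livers). Tmprss6 fell by 0.80 ± 0.19 SE in β-catΔEx3:Myc livers (adjusted p = 0.00628) and by 0.73 ± 0.20 in β-catΔEx3 livers (adjusted p = 0.0165). Both Tmprss6 calls held in the slide-blocked fit, at -1.40 (adjusted p = 0.0252) in β-catΔEx3:Myc livers and -1.27 (adjusted p = 0.0318) in β-catΔEx3 livers, and the second was lost without β-catΔEx3 replicate 3 (adjusted p = 0.0625). Hjv read 2.31 to 3.11 in β-catΔEx3:Myc livers, 2.30 to 2.78 in β-catΔEx3 livers and 0.50 to 1.25 in WT livers. Its log2 fold change was 1.62 ± 0.23 SE in β-catΔEx3:Myc livers (adjusted p = 0.000374) and 1.59 ± 0.24 in β-catΔEx3 livers (adjusted p = 0.000851), and neither call held in the slide-blocked fit (adjusted p = 0.0915 for β-catΔEx3:Myc livers and 0.0739 for β-catΔEx3 livers). Bmp4 fell by 1.65 ± 0.29 SE in β-catΔEx3:Myc livers and by 1.56 ± 0.31 in β-catΔEx3 livers, where the call was lost slide-blocked (adjusted p = 0.0692). Bmp2, the other endothelial BMP ligand for hepcidin, read -0.48 to 0.89 in β-catΔEx3:Myc livers, 0.93 to 2.16 in β-catΔEx3 livers and 2.38 to 2.59 in WT livers. Its groups did not overlap in any of the 3 comparisons, and it was called lower in β-catΔEx3:Myc against WT (-2.10 ± 0.33 SE, 4.28-fold, adjusted p = 0.00068), where slide as a block ended the call (adjusted p = 0.105), but not in β-catΔEx3 against WT (-0.93, adjusted p = 0.0605) or between the models (-1.17, adjusted p = 0.226). The endothelial marker sums given with Bmp6 had the same order of groups as Bmp2, and their part in the Bmp2 difference was not tested. Smad9 was called lower in β-catΔEx3 livers (-1.60 ± 0.33 SE, adjusted p = 0.00397, and 0.0643 slide-blocked). The inflammatory arm had 1 call, a lower one, among 4 measured genes in each model (backgrounds 17.1% for β-catΔEx3:Myc and 15.5% for β-catΔEx3 livers): Il6st, the shared receptor subunit of the interleukin-6 family, fell by 1.01 in β-catΔEx3:Myc livers and by 0.87 in β-catΔEx3 livers, the second call lost slide-blocked (adjusted p = 0.0719).

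Tfrc, the receptor that takes up transferrin-bound iron in most cells, rose most among the 10 genes in both models. It read 2.80, 2.40, 1.99 and 2.13 in β-catΔEx3:Myc livers, 2.24, 2.35 and 2.0 in β-catΔEx3 livers, and -0.36, -0.46, 0.15 and 0.29 in WT livers. The models shared a range, about 2 units above WT. The log2 fold change was 2.42 ± 0.23 SE (5.37-fold, adjusted p = 3.96e-05) in β-catΔEx3:Myc livers and 2.29 ± 0.25 (4.90-fold, adjusted p = 0.000124) in β-catΔEx3 livers. Both calls held with slide as a block, at 1.90 (adjusted p = 0.0202) in β-catΔEx3:Myc livers and 1.65 (adjusted p = 0.0286) in β-catΔEx3 livers. Within slide 4 the β-catΔEx3:Myc liver exceeded the WT liver by 1.83 and the β-catΔEx3 liver exceeded it by 1.71. A second Tfrc probe rose by 2.20 in β-catΔEx3:Myc livers and by 1.84 in β-catΔEx3 livers. The remaining Tfrc probe was well above background on every array of both models and on no WT array, at least 3.56-fold higher in β-catΔEx3:Myc livers and at least 2.98-fold higher in β-catΔEx3 livers, bounds set from the lowest signal well above background on each array. Tfrc did not differ between the models past its error (0.13 ± 0.25 SE).

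Trf, the plasma carrier transferrin made by hepatocytes, was slightly lower in β-catΔEx3:Myc livers. It read 9.90, 9.98, 9.96 and 10.01 in β-catΔEx3:Myc livers, 10.18, 10.45 and 10.02 in β-catΔEx3 livers, and 10.44, 10.49, 10.37 and 10.85 in WT livers. The β-catΔEx3:Myc arrays lay below all the others. The log2 fold change against WT was -0.58 ± 0.15 SE (1.49-fold, adjusted p = 0.0098) in β-catΔEx3:Myc livers and -0.33 ± 0.16 (adjusted p = 0.135) in β-catΔEx3 livers, and it was -0.25 (adjusted p = 0.658) between the models. The β-catΔEx3:Myc call rested on this probe and processing: the second Trf probe gave -0.20 (adjusted p = 0.249), normexp background correction gave an adjusted p of 0.342 and slide as a block 0.0511.

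The other uptake and reduction genes split, with 2 of 10 measured called higher and 5 lower in each model against WT, where the backgrounds were 25.3% higher and 17.1% lower in β-catΔEx3:Myc livers and 21.6% higher and 15.5% lower in β-catΔEx3 livers. Lcn2, the siderophore-binding lipocalin that also marks the acute phase, was 3.38 ± 0.46 SE higher in β-catΔEx3:Myc livers (adjusted p = 0.000343) and 3.71 ± 0.50 higher in β-catΔEx3 livers (adjusted p = 0.000465). Scara5, a ferritin receptor, was 3.43 ± 0.65 higher in β-catΔEx3:Myc livers (adjusted p = 0.00197, and 0.173 slide-blocked), with 2 of 4 WT arrays well above background. Without WT replicate 4 that value was 4.20. Steap4, a metalloreductase, read -2.69 to -1.25 in β-catΔEx3:Myc livers, -2.67 to -1.11 in β-catΔEx3 livers and 1.21 to 1.39 in WT livers, 10.3-fold and 8.61-fold lower in β-catΔEx3:Myc and β-catΔEx3 livers (adjusted p = 8.14e-05 and 0.00029, the second 0.0541 in the slide-blocked fit). Steap2, of the same family, fell in β-catΔEx3 livers (-2.47 ± 0.48 SE, adjusted p = 0.00306) and read -0.09 (adjusted p = 0.896) in β-catΔEx3:Myc livers. The difference in Steap2 between the models, 2.38 ± 0.48 SE, had an adjusted p of 0.0758 and, slide-blocked, of 0.0224. Slc39a14, the transporter that carries non-transferrin iron into hepatocytes, was among the genes that fell, by 1.21 in β-catΔEx3:Myc livers and by 1.17 in β-catΔEx3 livers, both calls lost slide-blocked (adjusted p = 0.0657 for β-catΔEx3:Myc livers and 0.0962 for β-catΔEx3 livers), and was named after its values were seen.

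Fth1, the ferritin heavy chain with the ferroxidase site, rose in both models. It read 9.86, 10.24, 10.24 and 10.01 in β-catΔEx3:Myc livers, 10.31, 10.22 and 10.28 in β-catΔEx3 livers, and 9.18, 8.90, 8.90 and 9.20 in WT livers. All arrays of both models lay above the WT arrays. Its log2 fold change was 1.04 ± 0.14 SE (2.06-fold, adjusted p = 0.000303) in β-catΔEx3:Myc livers and 1.22 ± 0.15 (2.34-fold, adjusted p = 0.000284) in β-catΔEx3 livers. It was 0.83 (adjusted p = 0.0867) in β-catΔEx3:Myc livers and 1.06 (adjusted p = 0.0487) in β-catΔEx3 livers in the slide-blocked fit. Ftl1, the ferritin light chain, spanned 9.29 to 9.85 in β-catΔEx3:Myc livers, 9.59 to 9.83 in β-catΔEx3 livers and 9.67 to 9.87 in WT livers, with log2 fold changes against WT of -0.10 ± 0.15 SE (adjusted p = 0.619) in β-catΔEx3:Myc livers and -0.04 ± 0.16 (adjusted p = 0.862) in β-catΔEx3 livers. Of 7 measured storage, chaperone and mitochondrial import genes, Slc25a28, the importer mitoferrin of non-erythroid cells, was the single call in each model (backgrounds 25.3% higher for β-catΔEx3:Myc and 21.6% for β-catΔEx3 livers), at 1.19 ± 0.24 and 1.27 ± 0.26 SE in β-catΔEx3:Myc and β-catΔEx3 livers, and slide as a block ended both calls (adjusted p = 0.144 and 0.0821). None of the 3 iron regulatory genes (Aco1, Ireb2, Fbxl5) was called by limma in any comparison, with 1 higher at an unadjusted p under 0.05 in β-catΔEx3:Myc against WT. Fbxl5, the one of highest signal, differed from WT by 0.18 ± 0.16 and 0.16 ± 0.17 SE in β-catΔEx3:Myc and β-catΔEx3 livers, and by 0.02 ± 0.17 between the models.

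Slc40a1 encodes ferroportin, the iron exporter. It read 5.29, 4.17, 4.54 and 3.56 in β-catΔEx3:Myc livers, 5.31, 5.09 and 5.62 in β-catΔEx3 livers, and 5.64, 5.55, 5.22 and 5.14 in WT livers. In β-catΔEx3:Myc livers 3 arrays lay below all others and replicate 1 lay within the range of the others. The log2 fold change against WT was -1.0 ± 0.32 SE (2.0-fold, adjusted p = 0.027) in β-catΔEx3:Myc livers and -0.05 ± 0.34 (adjusted p = 0.922) in β-catΔEx3 livers, and the difference between the models was -0.95 (adjusted p = 0.339). The β-catΔEx3:Myc call was lost with slide as a block (-1.05, adjusted p = 0.319) and without WT replicate 1 (0.0691), WT replicate 2 (0.0666), β-catΔEx3:Myc replicate 2 (0.0679) or β-catΔEx3:Myc replicate 4 (0.0553). Kupffer cells, the liver macrophages that recycle red cell iron through ferroportin, had all 7 measured markers called lower in each model. The backgrounds were 17.1% lower in β-catΔEx3:Myc livers and 15.5% in β-catΔEx3 livers. Sums of the 7 were 16.1 to 59.6 in β-catΔEx3:Myc livers, 18.3 to 53.1 in β-catΔEx3 livers and 214 to 333 in WT livers. None of these markers was at background on every array. The part of these cells in the β-catΔEx3:Myc value was not tested.

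Heph, hephaestin, a membrane ferroxidase that works beside ferroportin, separated the models. It read -2.14, -2.60, -2.56 and -2.32 in β-catΔEx3:Myc livers, -0.52, -0.77 and 0.14 in β-catΔEx3 livers, and -0.87, -1.22, -0.77 and -1.06 in WT livers. All β-catΔEx3:Myc arrays lay below all others. Between the models the log2 fold change was -2.02 ± 0.23 SE (4.05-fold, adjusted p = 0.00893), -1.97 (adjusted p = 0.023) with slide as a block, -1.72 within slide 2 and -2.46 within slide 4. Leaving out each array of either model in turn kept the adjusted p between 0.0106 and 0.0293. Against WT, Heph was lower in β-catΔEx3:Myc livers (-1.42 ± 0.21 SE, 2.68-fold, adjusted p = 0.000506, and 0.126 in the slide-blocked fit) and was not called in β-catΔEx3 livers (0.60 ± 0.23, adjusted p = 0.0613). Without β-catΔEx3 replicate 2 the last value was 0.79 (adjusted p = 0.0255). The array has 3 Heph probes, and the other 2, designed to another RefSeq transcript of the gene, were not well above background on any array, so the values describe what 1 probe reads. Biliary markers, from 5 genes all detected, summed to 1.04 to 1.25 in β-catΔEx3:Myc livers, 2.24 to 2.45 in β-catΔEx3 livers and 1.52 to 3.87 in WT livers. In WT livers Spp1 was the brightest of them, with means of -1.61 in β-catΔEx3:Myc and 0.87 in WT livers. Means in the same groups were -1.34 and -1.30 for Krt19, -3.47 and -3.54 for Krt7, -2.58 and -2.47 for Sox9, and -4.59 and -4.08 for Epcam. In β-catΔEx3 livers the means were 0.05 for Spp1, -0.37 for Krt19, -2.29 for Krt7, -2.15 for Sox9 and -4.15 for Epcam. Between the models none of the 5 was called. At an unadjusted limma p under 0.05, 3 were lower in β-catΔEx3:Myc livers, and the median log2 fold change of the 5 was -0.97. Against WT 1 of the 5 was called lower in β-catΔEx3:Myc livers (background 17.1%) and 1 higher in β-catΔEx3 livers (21.6%). Stellate cell markers, from 6 genes all detected with Dcn the brightest, summed to 23.4 to 43.2 in β-catΔEx3:Myc livers, 50.03 to 65.5 in β-catΔEx3 livers and 67.7 to 114 in WT livers. The part of either in Heph was not tested.

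Cp, ceruloplasmin, the copper ferroxidase that hepatocytes secrete, was lower in both models. It read 7.18, 7.24, 6.95 and 7.18 in β-catΔEx3:Myc livers, 6.88, 6.77 and 6.0 in β-catΔEx3 livers, and 8.06, 8.11, 7.80 and 8.09 in WT livers. No groups overlapped, with β-catΔEx3 livers lowest. The log2 fold change against WT was -0.88 ± 0.19 SE (1.84-fold, adjusted p = 0.00463) in β-catΔEx3:Myc livers and -1.46 ± 0.21 (2.76-fold, adjusted p = 0.000612) in β-catΔEx3 livers. In the slide-blocked fit it was -1.18 (adjusted p = 0.0607) in β-catΔEx3:Myc livers and -1.83 (adjusted p = 0.0188) in β-catΔEx3 livers. Between the models Cp differed by 0.59 ± 0.21 SE (adjusted p = 0.335). It was 1 of 3 of the 10 genes whose 2 model groups did not overlap, with Heph and Trf, where 8.1% of all features had groups apart. Hepatocyte markers, 6 genes all detected, summed to 3025 to 3984 in β-catΔEx3:Myc livers, 3544 to 4089 in β-catΔEx3 livers and 4452 to 5819 in WT livers. Of the 6, 1 was called higher (background 25.3%) and 3 lower (17.1%) in β-catΔEx3:Myc livers, and 3 lower (15.5%) in β-catΔEx3 livers.

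**Figure D3:**
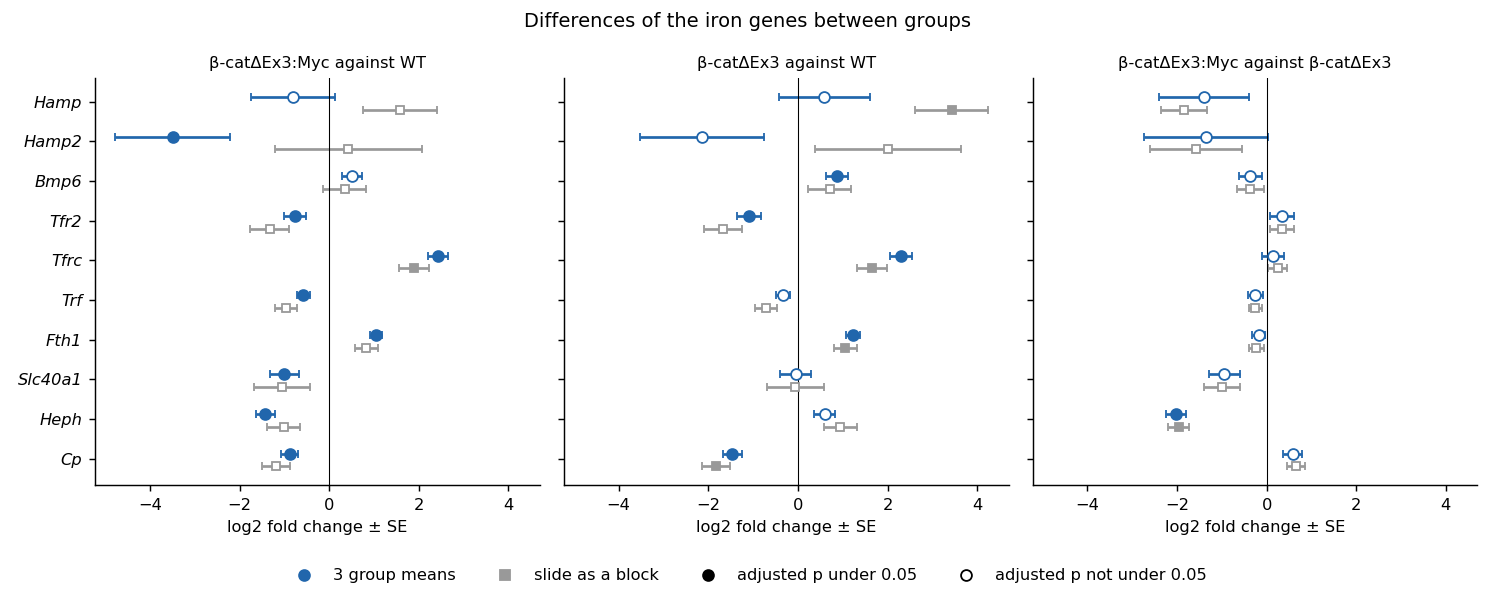
Log2 fold change ± SE (x axis) of the 10 iron genes in the 3 comparisons, without a slide term (circles) and with slide as a block (squares). Filled symbols have an adjusted p under 0.05. Tfrc is higher in both models in both fits, Hamp and Hamp2 change sign between the fits in at least 1 comparison with WT, and Heph stands at -2.02 and -1.97 between the models.

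Of the 13 heme genes measured, 6 were called higher (background 25.3%) and 3 lower (17.1%) in β-catΔEx3:Myc livers, and 5 higher (21.6%) and 3 lower (15.5%) in β-catΔEx3 livers, with median log2 fold changes of 0.36 in β-catΔEx3:Myc livers and 0.57 in β-catΔEx3 livers. Hmox1, heme oxygenase, which frees iron from heme, read 5.16, 4.39, 6.35 and 3.88 in β-catΔEx3:Myc livers, 6.67, 5.09 and 7.70 in β-catΔEx3 livers, and 2.75, 3.12, 2.97 and 3.56 in WT livers. Every array of both models lay above WT. It was 1.85 ± 0.60 SE higher in β-catΔEx3:Myc livers (adjusted p = 0.0289) and 3.39 ± 0.65 higher in β-catΔEx3 livers (adjusted p = 0.00267), with both calls lost under the slide block (adjusted p = 0.451 for β-catΔEx3:Myc livers and 0.0856 for β-catΔEx3 livers). The β-catΔEx3:Myc call was lost without WT replicate 1, 2 or 3 or β-catΔEx3:Myc replicate 1 or 3 (adjusted p = 0.0586 to 0.0739) and in the authors' matrix (0.0507), and the β-catΔEx3 value was 4.09 without its replicate 2 and 2.78 without its replicate 3. Blvrb, a biliverdin reductase, was 3.12 ± 0.39 and 3.35 ± 0.42 SE higher in β-catΔEx3:Myc and β-catΔEx3 livers, and kept its calls with slide as a block (adjusted p = 0.0232 and 0.0127). Slc48a1, a heme transporter, was 1.85 ± 0.38 SE higher in β-catΔEx3 livers (adjusted p = 0.00423, and 0.165 slide-blocked). Cd163, the macrophage receptor for haptoglobin-bound hemoglobin, was not well above background on any β-catΔEx3:Myc array and was measured on 2 of 4 WT arrays, at least 1.74-fold lower in β-catΔEx3:Myc livers (adjusted p = 0.0194), a bound set in the same way as for Tfrc. Its call was lost without WT replicate 2 (adjusted p = 0.0555) and under normexp (0.0656) or the slide block (0.346).

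Over all the other iron and heme genes, 58 of 63 listed were measured. In each model 11 of the 58 were called higher and 14 lower than in WT, next to backgrounds of 25.3% higher and 17.1% lower in β-catΔEx3:Myc livers and 21.6% higher and 15.5% lower in β-catΔEx3 livers, with medians of -0.01 in β-catΔEx3:Myc livers and 0.04 in β-catΔEx3 livers. Between the models limma called none of the 58, with 3 higher and 4 lower at an unadjusted p under 0.05. The genes of highest signal in their lists differed between the models by -0.33 for Lcn2, -0.06 for Ftl1, -0.06 for Tmprss6, 0.17 for Il6ra and -0.02 for Hpx, the heme carrier hemopexin.

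**Figure D4:**
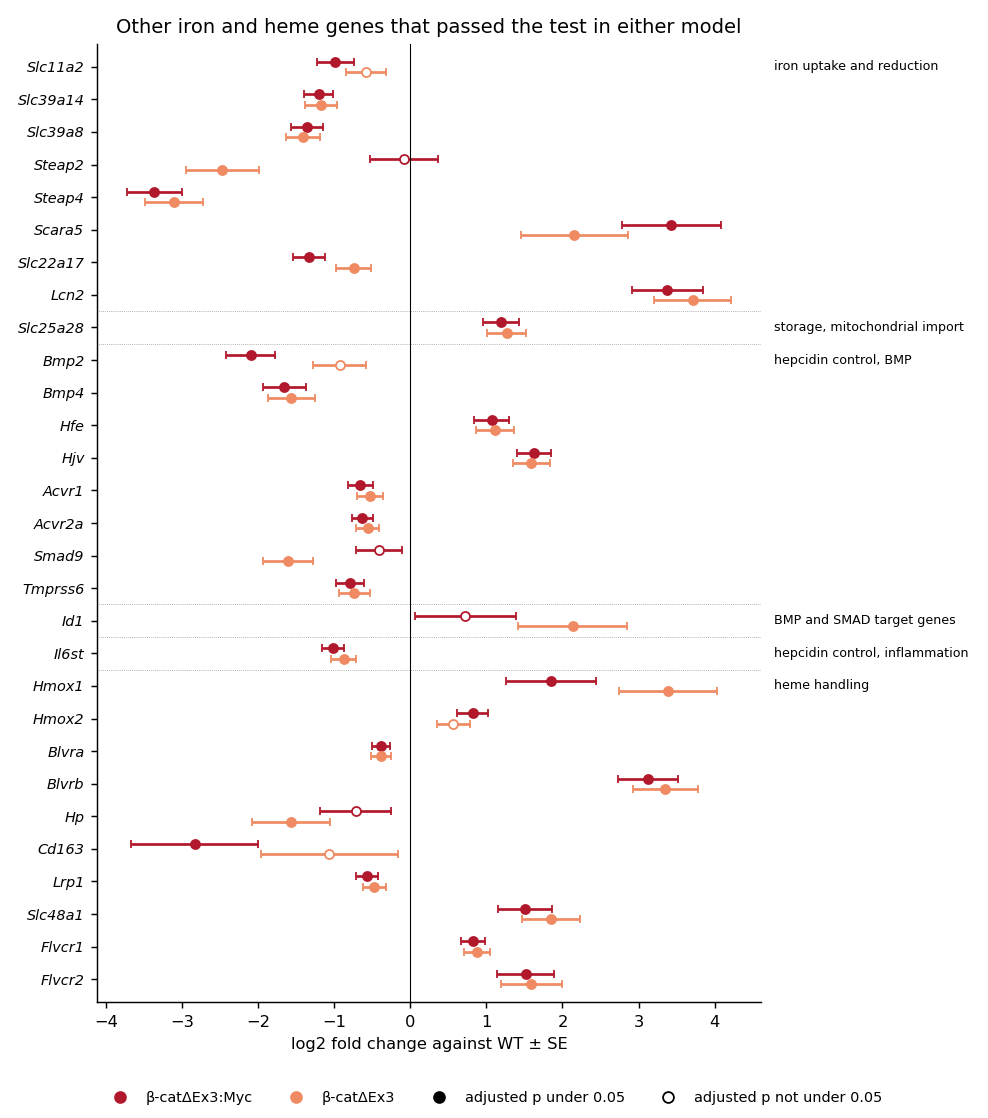
Log2 fold change against WT ± SE (x axis) of the other iron and heme genes that passed the test in either model, grouped by list, for β-catΔEx3:Myc and β-catΔEx3 livers. Filled points have an adjusted p under 0.05. Lcn2, Blvrb and Hjv lie to the right in both models and Steap4, Bmp4 and Slc39a14 to the left, while Steap2 lies at -0.09 in β-catΔEx3:Myc livers and -2.47 in β-catΔEx3 livers.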

How the data were processed

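The authors scanned each one-colour array with Agilent Feature Extraction 10.7.1.1, and the deposited files give processed intensity per spot, background and median signal, and background and outlier flags, per the file headers. The authors' deposited matrix of log2 values (median 4.51 on every array, same order as the scanner signal) served as an alternative; its values are not centred by gene and its normalization is not given in the sources used here. Outlier spots were left out, log2 intensities were scaled to each array's 75th percentile over spots that are not controls, spots were averaged, probes well above background on 3 or more arrays were kept (29695), and the brightest probe stood for a gene. Accessions named 26582 of 55681 probes. Limma 3.58.1 in R 4.3.3 fitted 3 group means to 11 arrays with Benjamini-Hochberg adjustment over 22282 features (13963 with a symbol). The fit was checked on simulated data that held no slide effect, so the check does not cover the overlap of slide and group. Alternatives were quantile normalization, the percentile over detected probes, normexp with offset 50, the authors' matrix, other filters (no filter, or 6 arrays), probe means, slide as a fixed or random block, outliers kept, and each array left out. Normexp used the median signal, since no mean signal column is in the files. Members and lists were chosen with earlier results of these data known. Named from each list were up to 3 called genes with the largest change per comparison, or the one of highest signal where none was called; Hfe, Tmprss6, Smad6, Slc39a14, Klf1 and Slc4a1 were named after their values were seen. Another 5 symbols were named by likeness to Hamp. Promoter windows are RefSeq's (GRCm38.p6); no window was found for Slc40a1, Trf and Heph.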

Additional observations from a re-analysis of the deposited data

Results flagged for a closer look

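Hamp in WT livers stood out because replicate 4 was far from the rest. The gap between its 2.59 and the next lowest WT array, 6.44, was 0.888 of the range of the 4 arrays. Such a gap is met by chance in about 1 of 20 groups. Each of the 10 genes was screened for one in the β-catΔEx3:Myc livers and in the WT livers. Hamp in WT livers was the only case found. With that many groups screened, about 1 such gap would be met by chance. Among 22270 features, 6.87% showed one in WT livers. Of the 22270, 1.63% did so with replicate 4 as the lowest. Hamp2 was also lowest in that liver, at 2.51 against 7.29 to 8.65 in the other WT livers, a gap of 0.778 of the range that did not pass the limit. The cause was not tested.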

How the results depend on the processing

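Of 520 log2 fold changes of the 10 genes recomputed under alternatives, 476 kept their direction and their side of the threshold, 28 lost a call, 7 gained one and 9 changed sign. With slide as a fixed block, which leaves each comparison with WT to WT replicate 4, 1 of the 10 genes was called in β-catΔEx3:Myc against WT in place of 8, and the other iron genes called numbered 6 in place of 25 in that comparison, 4 in place of 25 in β-catΔEx3 against WT and 1 in place of 0 between the models. Calls over all 22282 features dropped too, to 956 higher and 991 lower in β-catΔEx3:Myc against WT and 926 and 886 in β-catΔEx3 against WT. The same block turned Hamp2 to 2.01 in β-catΔEx3 against WT and 0.43 in β-catΔEx3:Myc against WT, and Hamp to 1.58 in β-catΔEx3:Myc against WT. Leaving out each array gave 5 to 8 of the 10 genes called in β-catΔEx3:Myc against WT, lowest without WT replicate 1 or β-catΔEx3:Myc replicate 4, 4 to 6 in β-catΔEx3 against WT, and 0 to 1 other iron genes between the models, the 1 without β-catΔEx3:Myc replicate 3. It moved Hamp between -0.44 and 1.00 and Slc40a1 between -0.19 and 0.0723 in β-catΔEx3 against WT, and between the models Tfrc between -0.026 and 0.24 and Tfr2 between -0.0031 and 0.53. The cause was not tested, beyond the fewer arrays in each such fit. The median of all features was 0.10 in β-catΔEx3 against WT and -0.08 with the percentile over probes detected on all arrays, where 42.3% of calls were higher in place of 58.1%. For β-catΔEx3:Myc against WT, 48.3% were higher in place of 59.6%. No paired analysis was possible because the replicate numbers only name the arrays.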

Other observations

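Over the 11 arrays, with each gene centred on its WT mean, the symbols whose log2 signal ran closest to Hamp, of 13956 compared, were Pdpn (root mean square difference 0.802), Fam180a (0.862), Efna4 (0.870), Clstn1 (0.876) and Btnl9 (0.886). They were well above background on 9, 4, 5, 4 and 10 arrays. The choice used all 11 arrays, WT replicate 4 included.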
